A study of Mus musculus with 6 samples.

Results

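The genes described here make, store, carry, oxidize and break down retinoids in the uterus. They were chosen by symbol: the retinaldehyde dehydrogenases (Aldh1a), the retinoic acid hydroxylases (Cyp26), the retinol and retinoic acid binding proteins (Rbp and Crabp), the retinol dehydrogenases and their relatives (Rdh and Dhrs), and *Stra6*, *Lrat*, *Retsat*, *Rarres1*, *Rarres2*, *Bcmo1*, *Bco2*, *Sdr16c5* and *Ttr*. This gave 45 of the 23420 genes measured. Uterine RNA was sequenced from 8-week-old C57BL/6J females that had mated with vasectomized males and were pseudopregnant, at day 4.5, the time at which a mouse uterus becomes receptive to an embryo. *Foxo1f/f* mice carry floxed alleles of *Foxo1* and served as controls. *PgrCre/+ Foxo1f/f* mice, called *Foxo1d/d* here, carry the same floxed alleles and Cre recombinase at the *Pgr* locus, which removes the second major coding exon of *Foxo1* in cells that express the progesterone receptor. The Cre acts in the epithelium and the stroma of the uterus and also in the pituitary and ovary, so the comparison does not separate these tissues. By genotype only *Foxo1d/d* mice carry Cre at the *Pgr* locus, so its presence and the loss of *Foxo1* cannot be told apart. Each genotype had 3 libraries, each from the pooled RNA of 2 mice. The study asked which uterine genes depend on FOXO1 at this time.

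Retinol reaches cells bound to RBP4 in plasma, enters through the membrane receptor STRA6, and is held in the cytosol by cellular retinol binding proteins or stored as esters made by LRAT. Retinol dehydrogenases turn it into retinaldehyde in a reversible step, the Aldh1a enzymes oxidize retinaldehyde irreversibly to retinoic acid, and the Cyp26 enzymes hydroxylate retinoic acid for removal, while CRABP proteins carry it within the cell to nuclear receptors or to these enzymes. In the rodent uterus *Aldh1a2* is best known from the stroma, and *Cyp26a1* is known as a progesterone-induced gene of the peri-implantation epithelium.

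Each value is the authors' mean count of a gene over the 3 libraries of a genotype, so there is 1 value per genotype, and the spread between pools was not analysed here for any of the differences below. A library held on average 26125014 counts on genes in *Foxo1f/f* and 27257963 in *Foxo1d/d*. Ratios are *Foxo1d/d* over *Foxo1f/f* after adding 1 to both mean counts and scaling them to the total counts of each genotype. They are given on the log2 scale with a 95% Wilson interval from the summed counts, which covers counting error only. Folds are ratios of the scaled means without the added count. *Foxo1* itself averaged 3941 counts in control uteri and 1456 in *Foxo1d/d*, with a log2 ratio of -1.50 (-1.55 to -1.45). Its counts cover the whole gene, and transcripts that lack the floxed exon are counted too.

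Of the 45 members, 36 averaged at least 10 counts over the 2 genotypes. Of these 36, 7 were over 1.5-fold higher in *Foxo1d/d* uteri, where 5.43% of all 15696 genes with that count were, and 6 were over 1.5-fold lower, where 3.51% of all genes were. That is 19.4% and 16.7% of the members with that count. Their median log2 ratio was 0.00, beside 0.02 over all 15696 genes, while the median size of the log2 ratio regardless of sign was 0.30, beside 0.14. Members thus lay on both sides of a centre near 0 and farther from it than the middle gene. The members just past 1.5-fold (0.58 on the log2 scale) were *Aldh1a1* at 0.60 and *Cyp26b1* at -0.60, and a member near it on the lower side was *Dhrs3* at -0.37. *Aldh1a1* was no longer past 1.5-fold when ratios were centred on the median gene or scaled by a trimmed mean, and neither was *Crabp2* when 5 was added to the counts in place of 1. Of the 9 members with fewer counts, *Rdh7* and *Sdr16c5* had none in either genotype, which allows up to 0.0383 CPM (counts scaled to the same library size in both genotypes) in *Foxo1f/f* and 0.0367 in *Foxo1d/d*. The other 7 were *Rarres1*, with means of 8.33 and 10.33, *Rbp2*, with 3.67 and 5, and *Dhrs2*, *Dhrs7c*, *Rbp3*, *Rdh8* and *Rdh19*, each with a mean of at most 1.33 in either genotype.

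**Figure D1:**
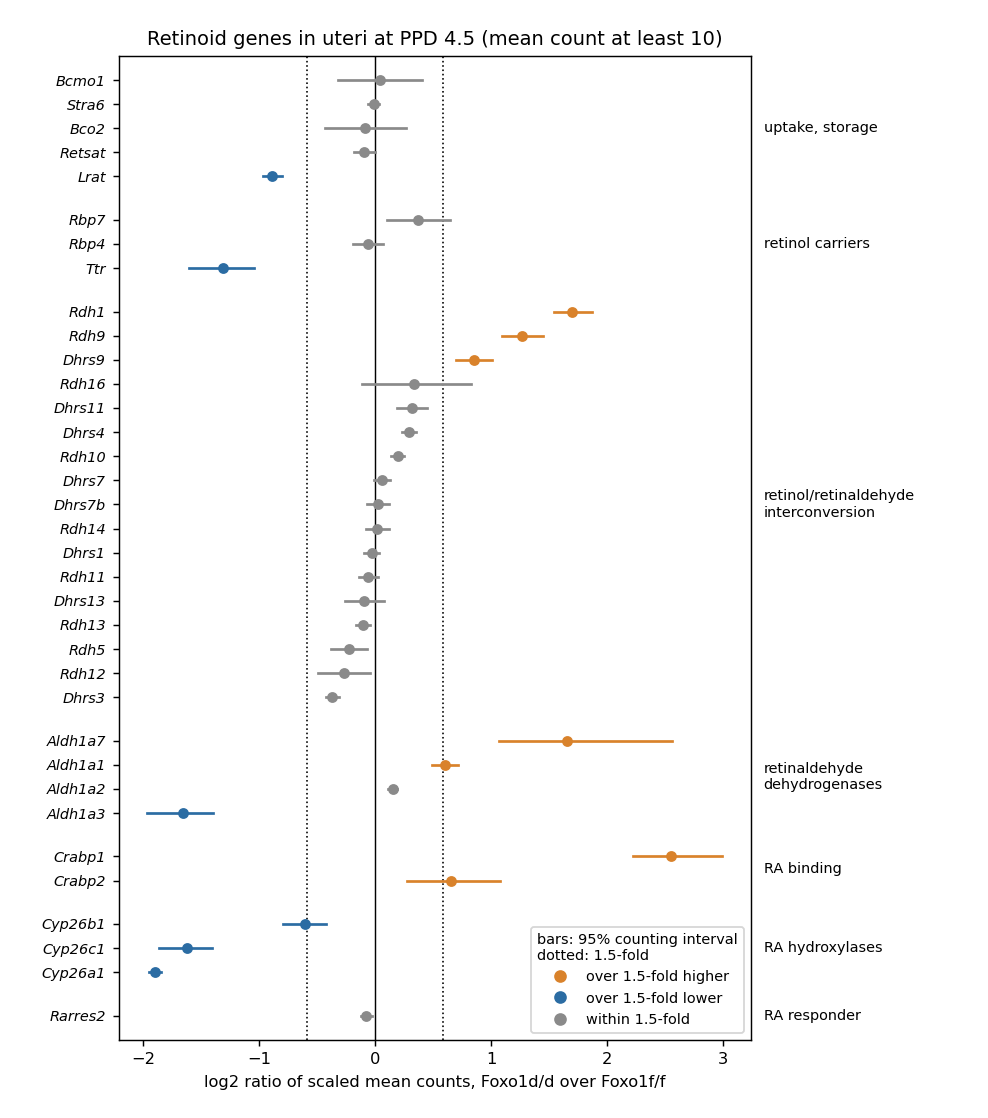
Log2 ratio of scaled mean counts, *Foxo1d/d* over *Foxo1f/f* (horizontal axis), of 35 of the 36 members with a mean count of at least 10 (1 is not shown), grouped by role, on pseudopregnancy day (PPD) 4.5. Points are ratios, bars are 95% counting intervals and dotted lines mark 1.5-fold; the Cyp26 genes all lie to the left, both Crabp genes to the right, and most Rdh and Dhrs genes between the lines.

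The genes of retinol uptake and storage differed little between the genotypes, apart from *Lrat*. *Stra6*, the retinol uptake receptor, averaged 2101 and 2172 counts, a log2 ratio of -0.01 (-0.06 to 0.04). *Lrat*, whose product esterifies retinol for storage, averaged 1101 counts in control uteri and 621 in *Foxo1d/d*. It was 1.85-fold lower, a log2 ratio of -0.89 (-0.97 to -0.80). *Retsat*, which saturates a double bond of retinol, had mean counts of 640 and 626. The carotenoid cleaving enzymes *Bcmo1* and *Bco2* had means of 39 and 42, and of 43.67 and 43.00. A paralog of *Stra6*, *Stra6l*, which encodes another receptor for RBP4, stands in the measured set under its older symbol 1300002K09Rik and is outside the 45. Its values were looked at after those of the members were known. It averaged 319 counts in control uteri and 171 in *Foxo1d/d*, with a log2 ratio of -0.96 (-1.12 to -0.81), so the abundant receptor was even between genotypes while its paralog was lower.

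Among the retinol carriers, *Rbp4*, the plasma carrier, had mean counts of 312 in both genotypes, a log2 ratio of -0.06 (-0.19 to 0.07). *Ttr*, transthyretin, which holds the RBP4 complex in plasma, averaged 114 counts in control uteri and 47.33 in *Foxo1d/d*. It was 2.51-fold lower, with a log2 ratio of -1.31 (-1.61 to -1.04). *Rbp7*, a cellular retinol binding protein of fat and endothelium, had 61.33 and 83.00, a log2 ratio of 0.37.

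The Rdh and Dhrs genes with *Sdr16c5* formed the largest group, with 23 members, of which 17 had a mean count of at least 10. Many of their products interconvert retinol and retinaldehyde, and some have no settled role in retinoid metabolism. Past 1.5-fold, 3 of the 17 were higher in *Foxo1d/d* and 0 were lower, beside 5.43% and 3.51% of all genes. *Rdh1*, a microsomal retinol dehydrogenase, averaged 129 counts in control uteri and 440 in *Foxo1d/d*. It was 3.27-fold higher, with a log2 ratio of 1.70 (1.54 to 1.87). *Rdh9*, which encodes a related enzyme active on cis-retinols and steroids, had 123 and 310, a log2 ratio of 1.26 (1.10 to 1.44). *Dhrs9*, a retinol dehydrogenase of epithelia, had 161 and 303, a log2 ratio of 0.85 (0.69 to 1.01). The 14 others lay between -0.37 for *Dhrs3* and 0.34 for *Rdh16*. They included the best known pair of the pathway: *Rdh10*, which oxidizes retinol and is needed for embryonic retinoic acid, averaged 1668 and 1991 counts, a log2 ratio of 0.19 (0.14 to 0.25). *Dhrs3*, which reduces retinaldehyde back to retinol, had 1705 and 1379, a log2 ratio of -0.37 (-0.43 to -0.31). The oxidizing member of the pair was thus slightly higher and the reducing member slightly lower, both by under 1.5-fold.

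*Rdh1* and *Rdh9* are neighbours in a cluster of related genes on chromosome 10, and reads of one copy can belong to another. The 90-base windows of each member's annotated transcripts were therefore looked up in the transcripts of all other genes, 90 bases being the length of the trimmed reads. For 30 of the 45 members no window was shared. For *Rdh9* 64.1% of windows were shared, with *Rdh16f1* and others, and for *Rdh1* 10.7%, so the count of *Rdh9* is uncertain while that of *Rdh1* rests mostly on sequence of its own. Within the cluster *Rdh16* had mean counts of only 21 and 28, *Rdh19* was near 0 and *Rdh7* had no count. The next genes outside the cluster, *Gpr182* and *Zbtb39*, had log2 ratios of 0.08 and 0.10.

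The retinaldehyde dehydrogenases differed in direction. *Aldh1a2*, the stromal enzyme, had by far the most counts of the 4, averaging 3320 and 3849, with a log2 ratio of 0.15 (0.11 to 0.19). *Aldh1a3* averaged 134 counts in control uteri and 43.67 in *Foxo1d/d*. It was 3.20-fold lower, a log2 ratio of -1.66 (-1.96 to -1.39). *Aldh1a1*, a marker of uterine glands, had 344 and 544 and was 1.52-fold higher, a log2 ratio of 0.60 (0.49 to 0.71). Its neighbour and close homolog *Aldh1a7* was counted rarely, with means of 6.00 and 22.00, and was 3.51-fold higher with a wide interval (1.07 to 2.56 on the log2 scale). The windows shared between them were 0.860% of those of *Aldh1a7* and 0.345% of those of *Aldh1a1*, and the part of *Aldh1a1* reads in the low count of *Aldh1a7* was not tested. Per length of transcript, *Aldh1a2* made up 89.2% of the Aldh1a level in control and 87.3% in *Foxo1d/d* uteri, while *Aldh1a1* made up 8.74% and 11.7%.

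*Aldh1a1* and *Aldh1a7* were both higher, and after their values were seen their promoters were compared. The 100 bases before their start sites are shown from the RefSeq promoters of GRCm38.p6, *Aldh1a1* at chr19:20601868-20601967 on the plus strand (its downstream start of 2) and *Aldh1a7* at chr19:20727557-20727656 on the minus strand, both written 5′ to 3′. Of the 2 *Aldh1a1* starts, the one shown was picked because it had the most positions identical to *Aldh1a7*. Capitals mark the longest identical run, 65 bases, and 94 of the 100 positions were the same. The likeness of these 2 homologs was not tested as a reason for their ratios.
Aldh1a1: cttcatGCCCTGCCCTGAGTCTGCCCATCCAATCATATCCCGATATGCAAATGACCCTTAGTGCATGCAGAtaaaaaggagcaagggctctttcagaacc
Aldh1a7: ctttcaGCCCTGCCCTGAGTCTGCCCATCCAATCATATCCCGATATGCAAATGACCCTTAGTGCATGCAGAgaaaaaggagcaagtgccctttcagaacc

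Both retinoic acid binding proteins were higher. *Crabp1*, which binds retinoic acid in the cytosol, averaged 21 counts in control uteri and 134 in *Foxo1d/d*. It was 6.10-fold higher, a log2 ratio of 2.55 (2.23 to 2.99), the highest of the 36 members and the 15th highest of the 15696 genes. *Crabp2*, which delivers retinoic acid to its nuclear receptors, had 26 and 43.33, a log2 ratio of 0.65 with a wide interval (0.27 to 1.08). Per length of transcript *Crabp1* stood at 1.00 and 6.11 CPM per kb.

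All 3 Cyp26 genes were over 1.5-fold lower in *Foxo1d/d* uteri, beside 3.51% of all genes. *Cyp26a1* averaged 5237 counts in control uteri and 1468 in *Foxo1d/d*. It was 3.72-fold lower, a log2 ratio of -1.90 (-1.94 to -1.85), the lowest of the 36 members and in place 66 from the lowest of all 15696 genes. *Cyp26c1* had 207 and 69.67 and was 3.10-fold lower, a log2 ratio of -1.62 (-1.86 to -1.41). *Cyp26b1* had 197 and 135, a log2 ratio of -0.60 (-0.79 to -0.43), close to the threshold. *Cyp26a1* and *Cyp26c1* are adjacent on chromosome 19, and none of the windows of any of the 3 Cyp26 genes was shared with another gene. The genes directly flanking the pair were also lower, by under 1.5-fold. Their log2 ratios were -0.32 (-0.39 to -0.24) for *Exoc6* on one side and -0.22 (-0.25 to -0.19) for *Myof* on the other. Farther out lay *Hhex* (-0.04) and *Kif11* (0.24) on the *Exoc6* side, and *Cep55* (0.24) and *Ffar4* (0.31) on the *Myof* side. *Cyp26b1*, which lies on chromosome 6, has *Dysf* (0.16) and *Exoc6b* (-0.02) beside it. Fewer cells that express a gene and less RNA per cell cannot be told apart in RNA from whole uteri.

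The promoter of *Cyp26a1* holds a known type of retinoic acid response element, and it is shown because this gene had the lowest ratio of the members. The stretch covers the 100 bases before the RefSeq start site, chr19:37697708-37697807 on the plus strand of GRCm38.p6, and capitals mark a pair of half-sites with 5 bases between them, from 32 to 16 bases before the start (37697776 to 37697792).
Cyp26a1: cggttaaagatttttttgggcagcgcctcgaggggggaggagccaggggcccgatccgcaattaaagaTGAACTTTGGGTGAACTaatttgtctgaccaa

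Direct repeats of AGGTCA or AGTTCA with any 5 bases between were searched on both strands of all 32851 RefSeq promoters of 300 bases, 250 before and 50 after each start. They were found in 13 promoters (0.0396%), and of the 35 members with an entry only *Cyp26a1* had such a repeat, on the minus strand. The same repeats with any 2 bases between were in 0.0396% of promoters and in none of these members. The forkhead motif GTAAACA was in 3.65% of promoters and in those of *Dhrs3* and *Rbp4*, neither of them past 1.5-fold. The single half-site AGGTCA, which overlaps the repeats, was in 16.3% of promoters and in those of 7 members, *Dhrs9* and *Rdh9* among them. The progesterone response half-site TGTTCT was in 19.0% of promoters and also in those of 7 members, of which *Lrat*, *Rdh1* and *Rdh9* were past 1.5-fold. A match describes these letters only. *Aldh1a3*, *Crabp2* and *Ttr* had no entry.

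*Rarres2*, which encodes the chemoattractant chemerin and is named for its response to a synthetic retinoid, had the highest level of the members per length of transcript in both genotypes, 120 and 114 CPM per kb. Its log2 ratio was -0.07 (-0.12 to -0.03), and 24.5% of its windows were shared with *Lrrc61*. *Cyp26a1* came next in *Foxo1f/f* at 112 CPM per kb, above *Aldh1a2* at 56.1. In *Foxo1d/d* the level of *Cyp26a1* was 30.1, which placed it in position 5, and *Aldh1a2* at 62.4 was in position 2. Most members past 1.5-fold had low levels: apart from *Cyp26a1*, all 12 were below 10 CPM per kb in both genotypes.

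**Figure D2:**
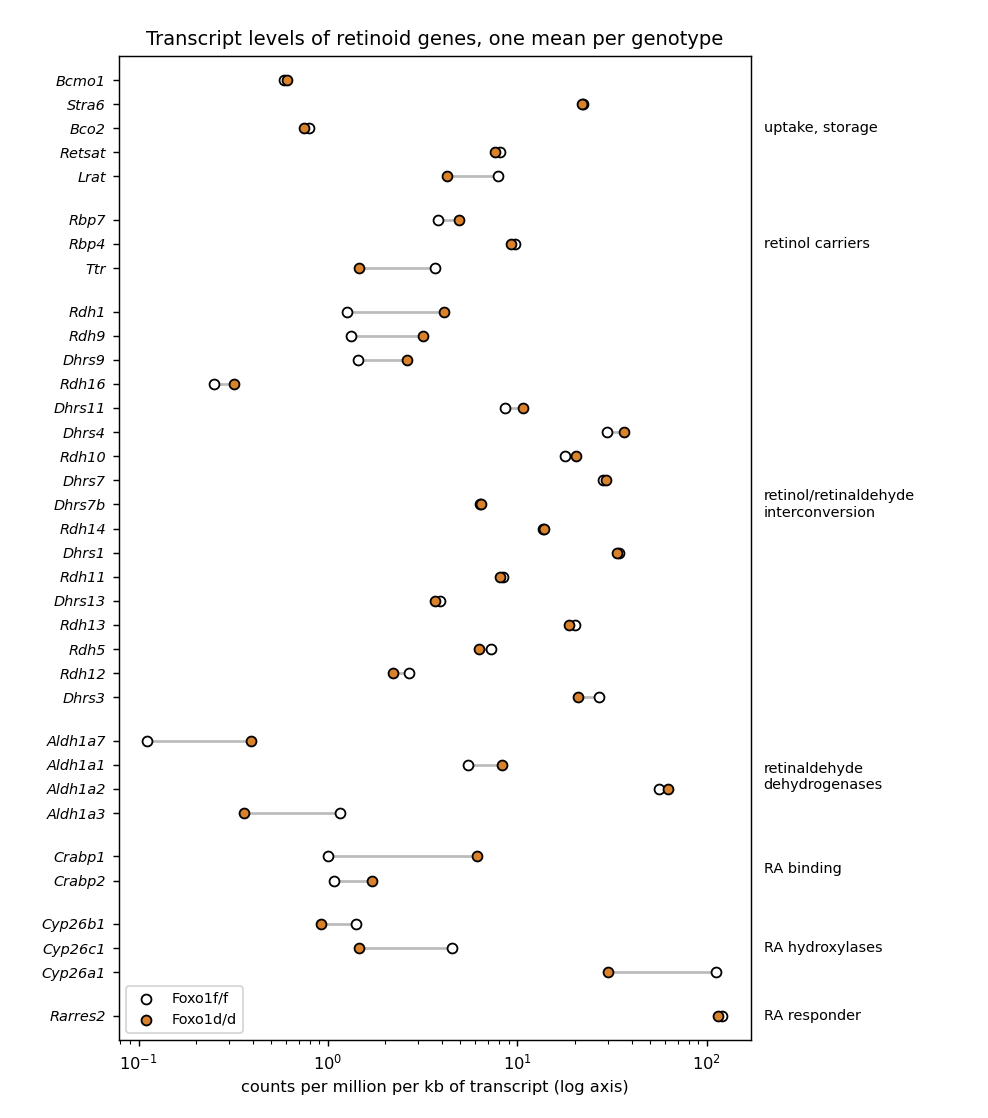
Level of 35 of the 36 members (1 is not shown) in *Foxo1f/f* (open) and *Foxo1d/d* (orange) as CPM per kb of transcript on a log axis, 1 mean per genotype and no error. *Cyp26a1* is the 1 abundant member whose points lie far apart, at 112 and 30.1, and *Crabp1* lies at the low end in controls and in the middle in *Foxo1d/d*, 1.00 and 6.11.

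Summed over families, the Cyp26 genes stood apart from the rest. They summed to 5641 counts per library in controls and 1673 in *Foxo1d/d*, with a log2 ratio of -1.81 (-1.86 to -1.77). The 4 Aldh1a genes together had 3804 and 4459, a log2 ratio of 0.17 (0.13 to 0.20). The 12 Rdh genes had 5171 and 5945, a log2 ratio of 0.14 (0.11 to 0.17). For the 10 Dhrs genes the log2 ratio was 0.03 and its interval (-0.00 to 0.05) held 0. Per length of transcript, the Aldh1a genes summed to 62.9 CPM per kb in controls and 71.5 in *Foxo1d/d*, while the Cyp26 genes summed to 118 and 32.5. The Aldh1a level was thus 0.534 of the Cyp26 level in *Foxo1f/f* and 2.20 of it in *Foxo1d/d*. *Cyp26b1* and *Cyp26c1* made up only 1.19% and 3.85% of the Cyp26 level in *Foxo1f/f*, and 2.84% and 4.51% in *Foxo1d/d*, so that nearly all of it was *Cyp26a1*. These are transcript levels of a whole organ, in which the genes need not be expressed in the same cells.

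**Figure D3:**
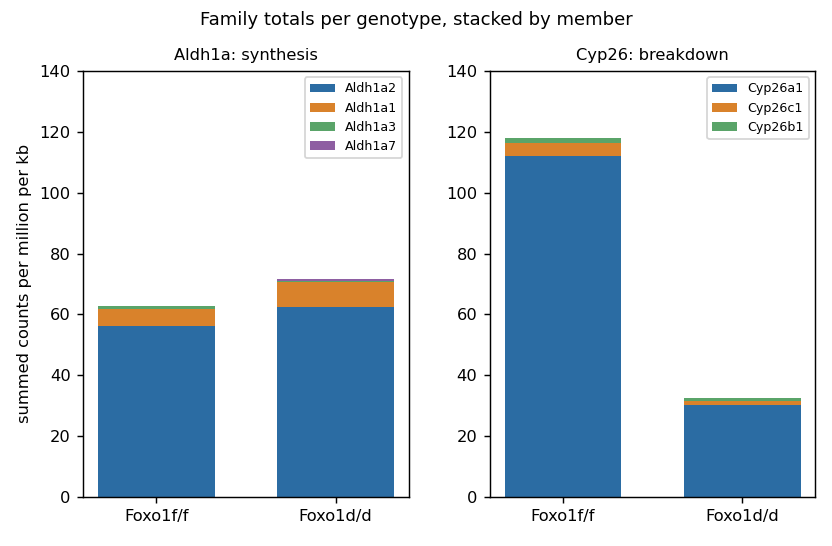
Summed CPM per kb of transcript of the Aldh1a and Cyp26 genes in each genotype, stacked by member, with the same vertical axis in each panel and no error bars. The Cyp26 bar is 118 in *Foxo1f/f* and 32.5 in *Foxo1d/d*, nearly all of it *Cyp26a1*, and the Aldh1a bar is 62.9 and 71.5.

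The nuclear receptors of retinoic acid were read next. Of the 6 RAR and RXR genes, 0 were past 1.5-fold in either direction, where 5.43% of all genes were higher and 3.51% lower, with a median log2 ratio of -0.05. *Rara* averaged 1276 and 1683 counts, a log2 ratio of 0.34 (0.28 to 0.40). *Rarb*, which retinoic acid itself induces in many cells, had 142 and 120, a log2 ratio of -0.31 (-0.51 to -0.11). *Rarg*, *Rxra*, *Rxrb* and *Rxrg* lay between -0.11 and 0.09. A further list held 12 genes known to respond to retinoic acid, taken from outside the members, with *Rarb* counted again. Members, among them *Cyp26a1* with its response element, were thus left out of it. Of the 12, 8 had a mean count of at least 10, with a median log2 ratio of -0.08. Of these 8, 0 were over 1.5-fold higher and 1 was over 1.5-fold lower (5.43% and 3.51% over all genes). The lower gene was *Pck1*, the gluconeogenic enzyme, with means of 623 and 394, a log2 ratio of -0.72 (-0.83 to -0.62). *Tgm2*, a transglutaminase and the most abundant gene of that list, had 19690 and 20959, a log2 ratio of 0.03, and *Nrip1*, a corepressor of nuclear receptors, was highest at 0.42.

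Of 13 other genes that handle retinoids, 9 had a mean count of at least 10, of which 3 were over 1.5-fold higher and 0 lower (5.43% and 3.51% over all genes), with a median log2 ratio of 0.27. *Lrp2*, which encodes megalin, an endocytic receptor that takes up RBP4 and transthyretin, averaged 3948 counts in control uteri and 9579 in *Foxo1d/d*, with a log2 ratio of 1.22 (1.19 to 1.25). *Fabp5*, a fatty acid binding protein that also carries retinoic acid, had 378 and 714, a log2 ratio of 0.85 (0.75 to 0.96). *Adh7*, an alcohol dehydrogenase that oxidizes retinol, had 138 and 234, a log2 ratio of 0.69 (0.52 to 0.87). The 6 within 1.5-fold were *Lpl* (0.51), *Adh5* (0.27), *Adh1* (0.17), *Dgat1* (0.04), the lipoprotein receptor *Scarb1* (-0.39) and the aldehyde oxidase *Aox1* (-0.51). *Scarb1* had the most counts of the list in *Foxo1f/f*, with a mean of 7691. *Lrp2* had the most in *Foxo1d/d*, where *Scarb1* had 6110.

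*Lrp2* and *Dhrs9*, both higher, are next to each other on chromosome 2. The 3 named protein-coding genes on each side of every member past 1.5-fold were then looked at, a choice made after the values were seen. Outside the members, 49 such neighbours had a mean count of at least 10, of which 6 were past 1.5-fold in the direction of their member, 2 in the other direction and 41 within it. Over all 15696 genes with that count, 5.43% were over 1.5-fold higher and 3.51% lower. The 6 were *Lrp2*, *Acsbg1* near *Crabp1*, *Cers3* near *Aldh1a3*, *Dsg3* near *Ttr*, and the fibrinogen chains *Fga* and *Fgg* next to *Lrat*. *Fga* averaged 87.33 and 2.67 counts, a log2 ratio of -4.65 (-6.09 to -4.10), and *Fgg* had 36 and 6.00, a log2 ratio of -2.46 (-3.36 to -1.93). The neighbours in the other direction were *Tac2* near *Rdh1*, with 377 and 96.00, and *Trpm6* near *Aldh1a1*, with 1685 and 298.

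Markers of uterine cell types were read as a check of the tissue and are given beside the members. All 8 stromal markers were abundant and within 1.5-fold, with a median log2 ratio of -0.08 and a summed level of 11719 and 11499 CPM. The 6 smooth muscle markers had a median of -0.30 and the 5 endothelial markers -0.22. Of 8 general epithelial markers 1 was over 1.5-fold higher, *Krt19* at 1.22, and the median was 0.29. Markers of luminal epithelium included *Calb1* at 2.07, *Lpar3* at 1.56, *Wnt7a* at 0.66 and *Muc1* at 0.28. The summed level of these 4 was 97.5 and 256 CPM, with *Calb1* the most abundant. Of the 5 gland markers, which include *Aldh1a1*, the secreted products *Spink1* (-4.70) and *Prss29* (-4.46) were far lower, *Foxa2*, the transcription factor that defines glands, was at 0.04, and *Cxcl15* was at 0.96. Their summed level was 681 and 82.7 CPM, with *Prss29* the most abundant, and no gland marker was at 0.

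Adipocyte markers shared 1 direction. All 7 were over 1.5-fold higher in *Foxo1d/d*, beside 5.43% of all genes. They ran from 1.70 for *Lep* to 2.19 for *Cidec* on the log2 scale, with a median of 1.86. Their summed level was 17.0 CPM in *Foxo1f/f* and 62.3 in *Foxo1d/d*, *Cfd* was the most abundant with mean counts of 156 and 594, and none was at 0. The erythroid genes *Alas2* (1.39) and *Hbb-bs* (1.16) were higher as well. The summed level of the 4 erythroid genes found was 47.2 and 108 CPM, mostly *Hbb-bs*, while *Hba-a1* and *Hba-a2* were at 0 in both genotypes. Shared windows were not looked up for these genes, so a 0 is not read as absence of the transcript. Among immune markers *Cd3e* was over 1.5-fold higher (1.09) and the median of the 6 was 0.39. Of 6 decidual markers, *Alpl* was higher (1.27) and *Prl8a2*, a late decidual gene, was at 0 in both. Mesothelial markers had a median of 0.20, and those of oviduct epithelium 0.17, with *Foxj1* at 0.89. Of the 4 markers of steroid-producing ovary only *Star* had a mean count of at least 10, at 0.03, and *Cyp19a1* was at 0 in *Foxo1f/f*. The part of these cell types in the ratios of the members was not tested.

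**Figure D4:**
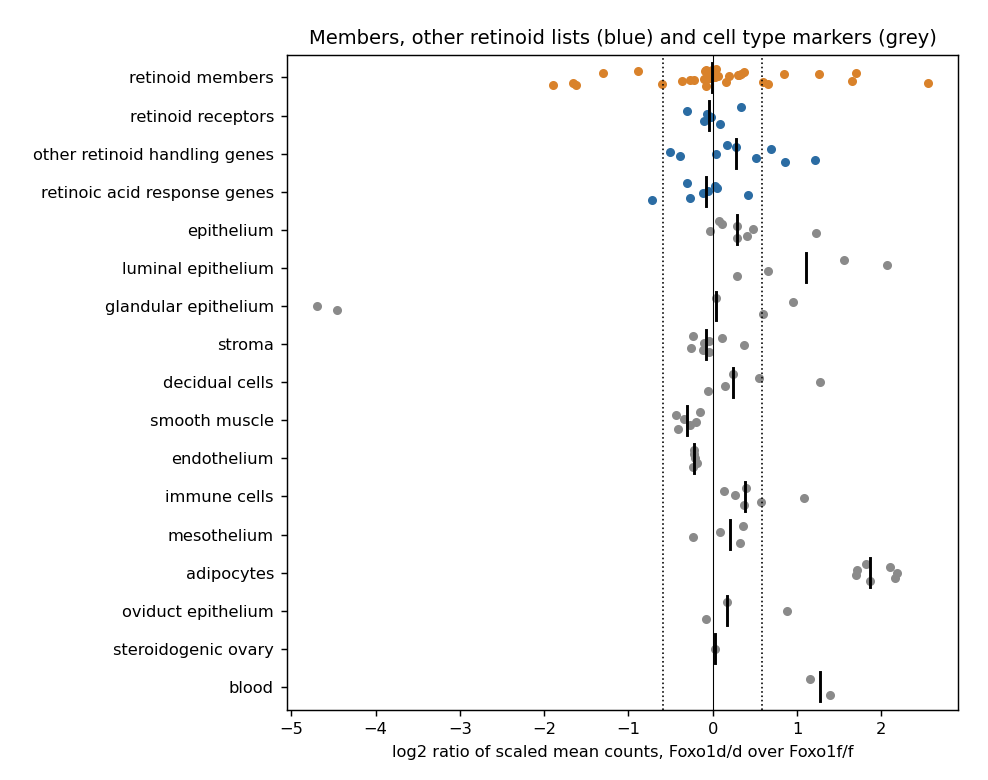
Log2 ratio of scaled mean counts, *Foxo1d/d* over *Foxo1f/f*, of all genes that averaged at least 10 counts, in the members (orange), the other retinoid lists (blue) and the cell type markers (grey). Points are genes, black ticks are medians and dotted lines mark 1.5-fold; the 7 adipocyte markers lie to the right of the line, the retinoid receptors lie between the lines, and the members spread to both sides.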

How the data were processed

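Total uterine RNA was made into paired-end TruSeq libraries after poly(A) selection. The authors trimmed the reads to 90 bases, mapped them with STAR and took out duplicate reads with Picard. HTSeq gave the reads of each RefSeq gene, and the authors compared the genotypes with edgeR. Versions are not given in the sources used here, and the build is mm10 in the study's methods but mm9 in the submitters' processing notes. The deposited values used here are raw counts averaged by the authors over the 3 libraries of a genotype, and each was a whole number after multiplication by 3 (to within 1e-09). The deposited table also holds the authors' fold change, log2 CPM, p-value and FDR, which were not used. The 0 other columns with values of single samples left no counts of single libraries to test, so no model was fitted and no p-value is given.

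Log2 ratios were computed in Python 3.11.15 with numpy 2.4.6, pandas 2.3.3 and scipy 1.17.1, with a pseudocount of 1, scaling by the total, a mean count of at least 10 and a threshold of 1.5-fold. The steps were tested on simulated data. Lengths are exon unions of GENCODE M21 (GRCm38). Promoters and gene order come from RefSeq GRCm38.p6, and older symbols were matched through its synonyms. Transcripts of GENCODE M21 served for the 90-base windows. Named were all members past 1.5-fold, members of known role, members near the threshold, and listed genes past 1.5-fold or receptors; others named were chosen after their values were seen. The members and lists were chosen with earlier results of these data known. Some counted or listed genes are not reported here. Alternatives were other pseudocounts, scalings, count minimums, fold thresholds, narrower membership and totals per kb.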

Additional observations from a re-analysis of the deposited data

How the results depend on the processing

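For 19 members, those past 1.5-fold and others of known role, all 95 values under other pseudocounts and scalings stayed within their counting intervals, and none changed sign. The number of members over 1.5-fold higher, 7, was 4 at a threshold of 2-fold, 12 at 1.2-fold, and 4 of 25 without members that have near-identical copies or no settled retinoid role, which leaves out *Rdh1*, *Rdh9* and *Aldh1a7*. It was between 5 and 7 under the other settings. *Rdh9* shared 64.1% of its windows with other genes, *Rdh1* 10.7% and *Aldh1a7* 0.860%, so the narrower membership did not follow the shared windows alone. The number lower, 6, was 4 at 2-fold, 8 at 1.2-fold and 6 otherwise. Over all genes, 1.99% were higher and 1.40% lower at 2-fold, and 15.7% and 11.7% at 1.2-fold. Per kb of transcript the log2 ratio of the Rdh total was 0.0835. The other family totals, and the medians of the 3 pathway lists under other scalings added after seeing the data, stayed within counting error. Scalings moved every ratio by at most 0.03. No paired analysis was possible because the genotypes' counts are means over libraries, and for the same reason no library was left out in turn. Depth limits *Aldh1a7*, *Crabp2*, *Rdh16* and the 9 members with mean counts under 10, whose intervals are wide.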
